A study of Mus musculus with 2 samples.

Results

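The genes described are 10 calcium-binding proteins of neurons, found in the ventral midbrain RNAseq table by their gene symbols among 31252 gene rows. They form 3 groups by structure and use: calbindin, calretinin and parvalbumin (Calb1, Calb2 and Pvalb), the NECAB family (Necab1, Necab2 and Necab3), and 4 neuronal calcium sensors (Hpcal1, Hpca, Ncald and Ncs1). Each symbol matched 1 row, and all 10 genes passed the minimum of a mean of 10 counts over the 2 libraries. Tissue came from 2-month-old mice of an incipient congenic C57BL/6 strain, as 1 library labelled Ctrl and another labelled OE. Both genotypes carry Slc6a3-Cre, in which the dopamine transporter gene drives Cre recombinase in dopaminergic (DA) neurons. OE mice also carry the CAG-S-COUP-TFII allele, which expresses COUP-TFII once Cre has acted, here in those cells. In the breeding scheme of the study's methods, which names Ctrl and OE among the littermates, every pup also receives from its mother a floxed Tfam allele and a tdTomato reporter. The sources do not say how many mice gave each library. With 1 library per group, no difference between genotypes has a replicate check, and the 95% intervals below cover counting error only.

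The labels name DA neurons as the cell type, but the libraries are of whole ventral midbrain: markers of oligodendrocytes summed to 27881 TPM (transcript level per length, scaled to a fixed total per library) in the Ctrl-labelled library and 23486 in the OE-labelled library, against 789 and 2008 TPM for 16 markers of DA neurons. Counts totalled 16984336 and 21326632. Nr2f2, the mouse gene for COUP-TFII and the one the allele overexpresses, went against the labels, with 637 counts in the Ctrl-labelled library and 377 in the OE-labelled library, a log2 fold change of -1.07 (95% interval -1.26 to -0.88). All directions here therefore follow the labels as written, and they would turn around if the 2 libraries had been exchanged. The study measured the overexpression in isolated DA neurons, whereas the Nr2f2 value here is of whole ventral midbrain. All 16 DA markers were higher in the OE-labelled library (median log2 fold change 1.35), and 17 of 18 thalamus markers were lower (median -1.67), with summed levels of 802 and 367 TPM in the Ctrl-labelled and OE-labelled libraries. Both marker lists were chosen with earlier results of these data known. The part of these markers in the values of the calcium-binding genes was not tested. In bulk tissue, fewer cells of a type and less RNA per cell cannot be told apart.

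Calcium entering a neuron is caught by proteins built around the EF hand, a helix-loop-helix unit whose loop holds the ion. Calbindin, calretinin and parvalbumin bind and release calcium in bulk and so shape how far and how long a calcium signal lasts. Neuronal calcium sensors instead change shape on binding, often exposing a fatty acid anchor, and pass the signal to membranes, channels and enzymes. NECAB proteins join EF hands at one end to an oxygenase-like domain at the other. In the midbrain, calbindin is a classical marker of the DA neurons of the VTA and of the dorsal tier of the SN, which are less vulnerable in Parkinson's disease, and parvalbumin marks fast-firing GABAergic neurons.

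One EF-hand loop of each gene is shown, because the loop is what the 10 genes have in common and because close relatives could share reads. The stretches are coding sequence of GENCODE M21 (GRCm38), read 5′ to 3′ on the gene's strand, and each codes for the 13 residues that match the EF-hand pattern of PROSITE. Capitals mark the codons at positions 1, 3, 5 and 12 of the loop, which usually carry side chains that hold the calcium ion. Of 21877 protein-coding genes, 219 had a match to this pattern, and all 10 genes shown had at least 1. Calb2 had 5 matches, Calb1 4, each of the 4 sensors 3, Pvalb and Necab2 2, and Necab1 and Necab3 1.

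The calcium buffers, from the exon 5 match of Calb1 at chr4:15895644-15895682 (plus strand), the exon 5 match of Calb2 at chr8:110149359-110149397 (minus strand) and the exon 2 match of Pvalb at chr15:78202523-78202561 (minus strand):
Calb1: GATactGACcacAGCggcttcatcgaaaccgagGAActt
Calb2: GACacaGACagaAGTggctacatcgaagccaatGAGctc
Pvalb: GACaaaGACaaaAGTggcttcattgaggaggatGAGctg

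The NECAB family, whose first match spans the junction of exons 2 and 3 in every member, so that the coordinates include an intron: Necab1 at chr4:15111274-15140234 (minus strand), Necab2 at chr8:119450097-119452110 (plus strand) and Necab3 at chr2:154555664-154557066 (minus strand). Necab1 and Necab3 each coded for 12 of the 13 residues of Necab2, with 32 and 30 of 39 bases identical.
Necab1: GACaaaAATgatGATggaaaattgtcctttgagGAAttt
Necab2: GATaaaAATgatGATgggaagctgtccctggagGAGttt
Necab3: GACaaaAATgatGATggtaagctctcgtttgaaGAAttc

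The neuronal calcium sensors, from the match at residues 109 to 121 of each protein, in exon 2 of Hpcal1 at chr12:17786495-17786533 (plus strand), exon 4 of Hpca at chr4:129118379-129118417 (minus strand), exon 5 of Ncald at chr15:37397072-37397110 (minus strand) and exon 5 of Ncs1 at chr2:31284164-31284202 (plus strand). Of the 39 bases of Hpca, Hpcal1 shared 33, Ncald 34 and Ncs1 31.
Hpcal1: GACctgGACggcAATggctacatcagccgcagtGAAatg
Hpca: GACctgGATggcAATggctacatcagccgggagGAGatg
Ncald: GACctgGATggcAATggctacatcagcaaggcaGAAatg
Ncs1: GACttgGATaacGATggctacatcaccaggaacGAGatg

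Over whole coding sequences of 579 bases, Hpcal1 and Hpca were identical at 86.0% of bases and 93.8% of residues, and Hpca and Ncald at 78.6% of bases and 88.1% of residues. In spite of this, members of the same family shared no stretch of 50 bases in the transcripts compared. Hpcal1 shared 7.18% of its 50-base stretches with genes outside the 10, most of them predicted genes, and it is the only member with a count that is not whole to within 0.001. Its count is therefore less certain than the others. Ncald shared 3.56% with 1 predicted gene, Gm49397, and Hpca 0.334%.

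All 10 genes were well above the detection limit, with between 508 and 6292 counts in a library, and together they held 0.134% of the counts in the Ctrl-labelled library and 0.124% in the OE-labelled library. Levels between genes are given as TPM, that is per length, with the median length of a gene's coding transcripts. Calb2 was the most abundant member in both libraries, at 349.7 TPM in the Ctrl-labelled library and 304.3 TPM in the OE-labelled library, above 96.4% of the tested genes that had a length. With these lengths Ncald followed at 214 and 212 TPM. With the longest coding transcript as length Calb2 stayed first, but Pvalb was second, at 246 and 302 TPM, and Ncald stood at 197 and 194 TPM, so the order after Calb2 holds only for the median length. In the Ctrl-labelled library the order went on with Hpca at 157 TPM, Pvalb at 150.04 TPM, Ncs1 at 129 TPM and Hpcal1 at 102 TPM, and the counting intervals of Hpca and Pvalb overlapped. The NECAB genes and Calb1 were the lowest, from 57.6 TPM for Necab1 to 32.0 TPM for Necab3, with overlapping intervals for Calb1 and Necab3. Even the lowest of them lay above the median of all tested genes, 19.5 TPM.

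In the OE-labelled library, Pvalb took the third place at 186 TPM. Hpca, Hpcal1 and Ncs1, at 121, 118 and 117 TPM, could not be ordered within their counting intervals. Necab2 moved from eighth place to the bottom, at 26.5 TPM, where its interval overlapped that of Necab3 at 29.0 TPM. The summed level of the 10 genes was 1276 TPM in the Ctrl-labelled library and 1195 TPM in the OE-labelled library. It hardly differed for calbindin, calretinin and parvalbumin together, at 536 and 526 TPM, and was 602 and 567 TPM for the sensors. For the NECAB family the sum was 139 TPM in the Ctrl-labelled library and 101 TPM in the OE-labelled library.

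**Figure D1:**
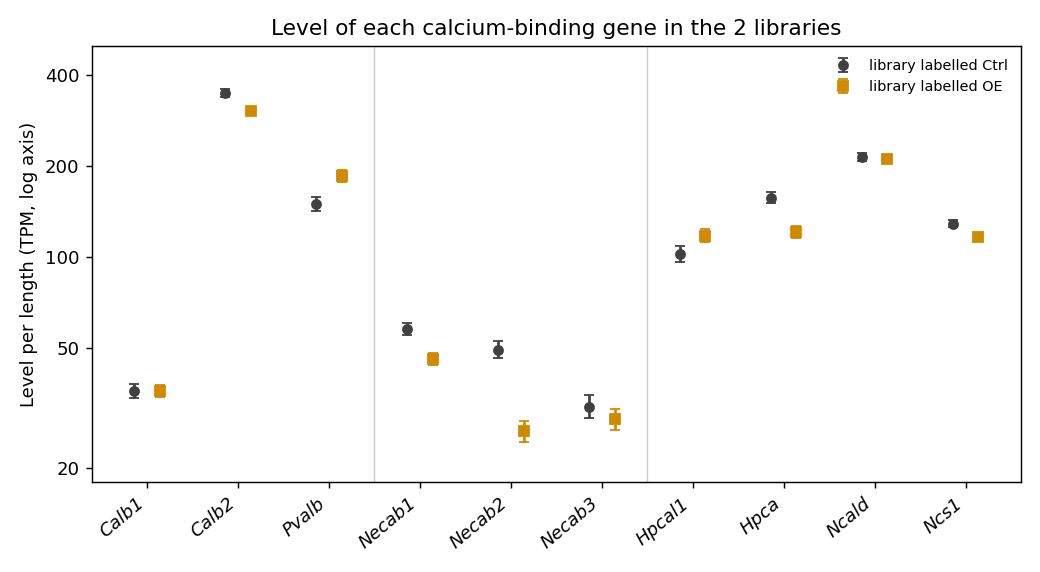
Level of each gene in TPM (log axis), with circles for the Ctrl-labelled library, squares for the OE-labelled library and bars for the exact Poisson 95% interval of the count. Calb2 leads in both libraries at 349.7 and 304.3 TPM, and on the log axis the widest gap between libraries is that of Necab2, at 49.3 and 26.5 TPM.

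Between the libraries, 2 of the 10 genes, Pvalb and Hpcal1, were higher in the OE-labelled library by more than log2 0.2, the fold used in the study's methods, and 3 genes, Necab1, Necab2 and Hpca, were lower by as much. Over 15246 tested genes, 17.9% lay as far above and 16.6% as far below, so the counts of 2 and 3 among 10 lie near this background. For all 5 of these genes the counting interval also excluded 0, which held for 9.9% of tested genes on the higher side and 9.16% on the lower side. These shares are not of genes at a like depth. Intervals narrow with more counts, and the 10 genes had at least 508 in a library, against a tested minimum mean of 10. The remaining 5 genes lay within log2 0.2 of no difference. On the log2 scale the 10 genes had a median of -0.11, beside 0.0046 for all tested genes. Fold changes below are of scaled counts, after a pseudocount of 0.5, as the OE-labelled library over the Ctrl-labelled library.

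**Figure D2:**
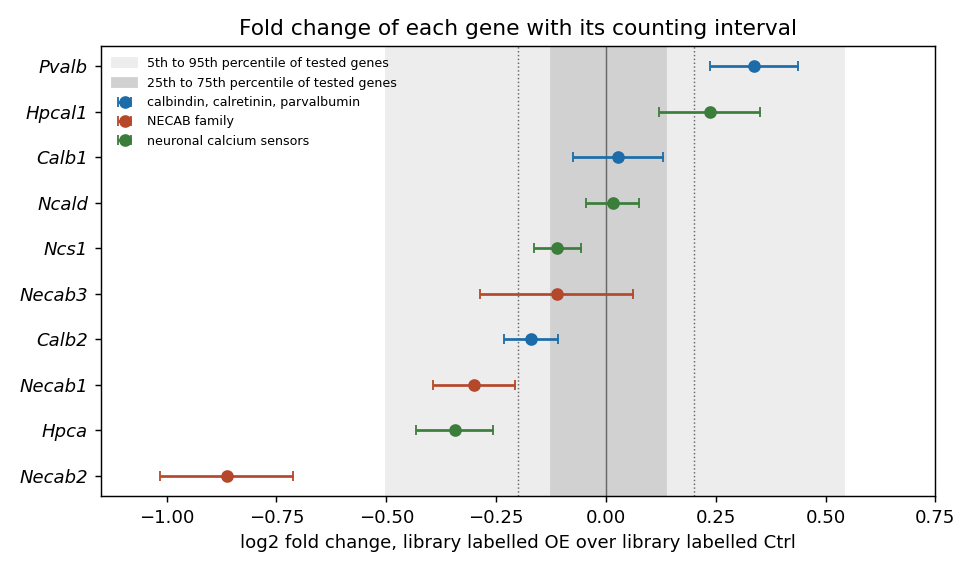
Log2 fold change of each gene (OE-labelled over Ctrl-labelled library), with bars for its 95% counting interval, dotted lines at log2 0.2 in both directions, and grey bands for the middle of the tested genes. Necab2, at -0.86, is the only gene outside the 5th to 95th percentile of tested genes, -0.50 to 0.54.

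Calbindin, calretinin and parvalbumin each went a different way. Calb1 had 1387 counts in the Ctrl-labelled library and 1757 in the OE-labelled library, which after scaling was a log2 fold change of 0.028 (interval -0.074 to 0.13). Over the whole tissue the 2 libraries thus did not differ detectably in Calb1 transcript at this depth. Every one of the 16 DA markers was higher in the OE-labelled library. Among them were Th, the rate-limiting enzyme of dopamine synthesis, by 1.59 and Slc6a3, the dopamine transporter, by 1.29. Bulk tissue does not show which cells the Calb1 reads came from, so the Calb1 value does not describe DA neurons alone. Calb2, which encodes calretinin, had 4006 and 4423 counts, which gave a log2 fold change of -0.17 (interval -0.23 to -0.11). It was lower in the OE-labelled library by more than counting error, but by less than log2 0.2.

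Pvalb had 1321 counts in the Ctrl-labelled library and 2074 in the OE-labelled library, a log2 fold change of 0.34 (interval 0.24 to 0.44), or 1.26-fold. This was the highest value of the 10 genes, above 90.4% of all tested genes. Of 8 markers of GABAergic neurons, 2 were higher by more than log2 0.2 and 0 lower, with a median of 0.036. Their summed level was 1421 TPM in the Ctrl-labelled library and 1359 TPM in the OE-labelled library. With the median lengths, Calb2 was 2.33 times as abundant as Pvalb in the Ctrl-labelled library and 1.64 times in the OE-labelled library.

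The NECAB family held the largest difference. Necab2, a partner of adenosine and metabotropic glutamate receptors, had 889 counts in the Ctrl-labelled library and 607 in the OE-labelled library, although the second library was the deeper one. Its log2 fold change of -0.86 (interval -1.01 to -0.71), or 0.55-fold, was among the lowest of all 15246 tested genes, of which 1.71% lay below it. Among thalamus markers, the transcription factor gene Tcf7l2 was lower in the same library, with 2204 and 398 counts.

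Necab1, which can bind a synaptotagmin, had nearly equal raw counts of 1854 and 1870. After scaling for depth it was lower in the OE-labelled library, with a log2 fold change of -0.30 (interval -0.39 to -0.21). Necab3, known for binding a partner of the amyloid precursor protein, was the least abundant member by count, at 508 and 584, and its log2 fold change of -0.11 (interval -0.29 to 0.062) was within counting error.

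The sensors spread to both sides. Hpca, which encodes hippocalcin, a sensor known from the hippocampus, had 2183 counts in the Ctrl-labelled library and 2136 in the OE-labelled library, a log2 fold change of -0.34 (interval -0.43 to -0.26). Its closest relative Hpcal1 went the other way, with 1035 and 1515 counts and differed on the log2 scale by 0.24 (interval 0.12 to 0.35). Of 8 tested markers of cortex and hippocampus, 3 were lower by more than log2 0.2 and 2 higher. Their median was -0.12, with values from -2.51 to 1.29. The summed level of all 12 markers listed was 108 TPM in the Ctrl-labelled library and 69.9 TPM in the OE-labelled library. Whether these markers bear on the values of Hpca was not tested.

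Ncald, the gene of neurocalcin delta, was the most even of the 10, with 4053 and 5090 counts and differed on the log2 scale by 0.015 (interval -0.044 to 0.075). Ncs1, which slows the desensitization of dopamine receptors, had the most counts of any member, 5466 and 6292. Its log2 fold change of -0.11 (interval -0.16 to -0.058) lay below 0 by more than counting error. The depth of these genes made the intervals narrow, with half-widths from 0.053 for Ncs1 to 0.17 for Necab3.

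The ratio of 2 genes within a library does not depend on how the libraries are scaled, so the 12 pairs within families were also compared by their ratio of counts in the OE-labelled library over that in the Ctrl-labelled library, with exact conditional intervals of the odds ratio. Of all 12 pairs, the largest shift was that of Necab2 over Necab3, -0.75 (interval -0.98 to -0.52). Per length, Necab2 was 1.54 times as abundant as Necab3 in the Ctrl-labelled library and 0.916 times in the OE-labelled library. Hpcal1 over Hpca shifted by 0.58 (interval 0.44 to 0.73), from a ratio of 0.650 to 0.973 per length. The count of Hpcal1 is the less certain one, as given above. Ratios per length here rest on the median lengths, while the shifts come from counts alone. With the longest coding transcript as length, Hpcal1 and Hpca stood at 141 and 164 TPM in the OE-labelled library.

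Among the buffers, the ratio of calretinin to parvalbumin shifted most, by -0.51 for Calb2 over Pvalb (interval -0.63 to -0.39). The ratio of Calb1 to Calb2 shifted by 0.20 (interval 0.078 to 0.32), from 0.103 to 0.118 per length. Necab1 over Necab3, at -0.19, was the only pair whose interval, from -0.39 to 0.0095, held 0. These intervals compare 2 libraries and do not tell how the ratios vary between mice.

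**Figure D3:**
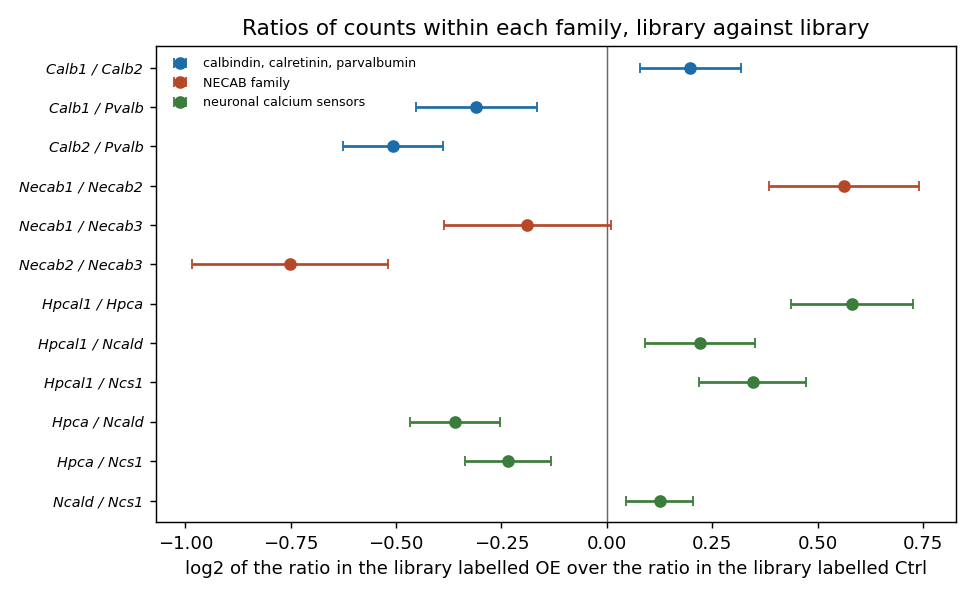
Shift of the ratio of counts for each of the 12 pairs within families, as log2 of the ratio in the OE-labelled library over that in the Ctrl-labelled library, with 95% counting intervals as bars. Necab2 over Necab3 lies farthest from 0 at -0.75, and Necab1 over Necab3 is the only pair whose bar crosses 0.

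Other genes of calcium binding and handling are given by 5 lists of 69 genes, of which 54 were tested. By more than log2 0.2, 4 of the 54 were higher in the OE-labelled library, or 7.41%, and 15 were lower, or 27.8%, beside 17.9% and 16.6% of all tested genes. The closest relatives of the sensors, visinin-like proteins, guanylate cyclase activators and the potassium channel partners called KChIPs, had 1 higher and 0 lower of 7 tested genes, with a median log2 fold change of -0.15. This median rests on the activator gene Guca1b, which had 10 and 11 counts, and is -0.031 over the other 6 genes. Hpcal4 was the highest of them at 0.31 (2868 and 4409 counts) and Kcnip3 the lowest at -0.19 (1169 and 1269 counts).

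Of 5 tested genes in the list of calmodulins, general calcium sensors of all cells, and the related CaBPs, Cabp1 was higher, by 0.23 with 426 and 620 counts, and Cabp7 lower, by -0.44 with 237 and 217 counts. Their median was 0.057. Among 8 tested S100 genes, 1 was higher and 3 lower, with a median of -0.061. S100a10, a partner of annexin, had 144 and 333 counts and differed on the log2 scale by 0.89 (interval 0.61 to 1.19), while S100a6, with 103 and 102 counts, was at -0.33 (interval -0.74 to 0.082). For all 3 lower S100 genes the interval held 0.

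Of 18 tested pumps, exchangers and store channels, 1 was higher and 3 were lower, with a median of -0.062. Atp2b1, a calcium pump of the plasma membrane, was the lowest of them at -0.39 (3467 and 3277 counts), and Slc24a4, an exchanger, the highest at 0.54 (72 and 130 counts).

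The list of calcium and calmodulin dependent kinases and calcineurin had the lowest median, -0.21. Of its 16 genes, 8 were lower in the OE-labelled library by more than log2 0.2, all 8 with an interval below 0, and 0 were higher. One of the 8 is Pcp4, at -0.50, which encodes a small calmodulin-binding peptide and is neither kinase nor calcineurin, and without it 7 of 15 were lower, with a median of -0.19. Camk2a, the kinase of excitatory synapses, was the lowest with 4298 and 3007 counts, a log2 fold change of -0.83 (interval -0.90 to -0.76). Camk1 was the highest at 0.15 (829 and 1140 counts).

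Markers of DA neurons and of the thalamus lay further apart between the libraries than any of the 3 calcium-binding families did by median. The medians were -0.0067 for 7 tested striatum markers, of which 2 were higher and 1 lower by more than log2 0.2, and 0.19 for 12 markers of neurons of any kind, of which 6 were higher and 1 lower. Summed levels in the Ctrl-labelled and OE-labelled libraries were 236 and 258 TPM for striatum and 6969 and 7454 TPM for neurons of any kind. All 12 oligodendrocyte markers were lower in the OE-labelled library by value, 9 of them by more than log2 0.2, with a median of -0.32. No marker of DA neurons or thalamus was at 0 in both libraries. The dissected tissue and the genotype cannot be told apart with 1 library each.

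**Figure D4:**
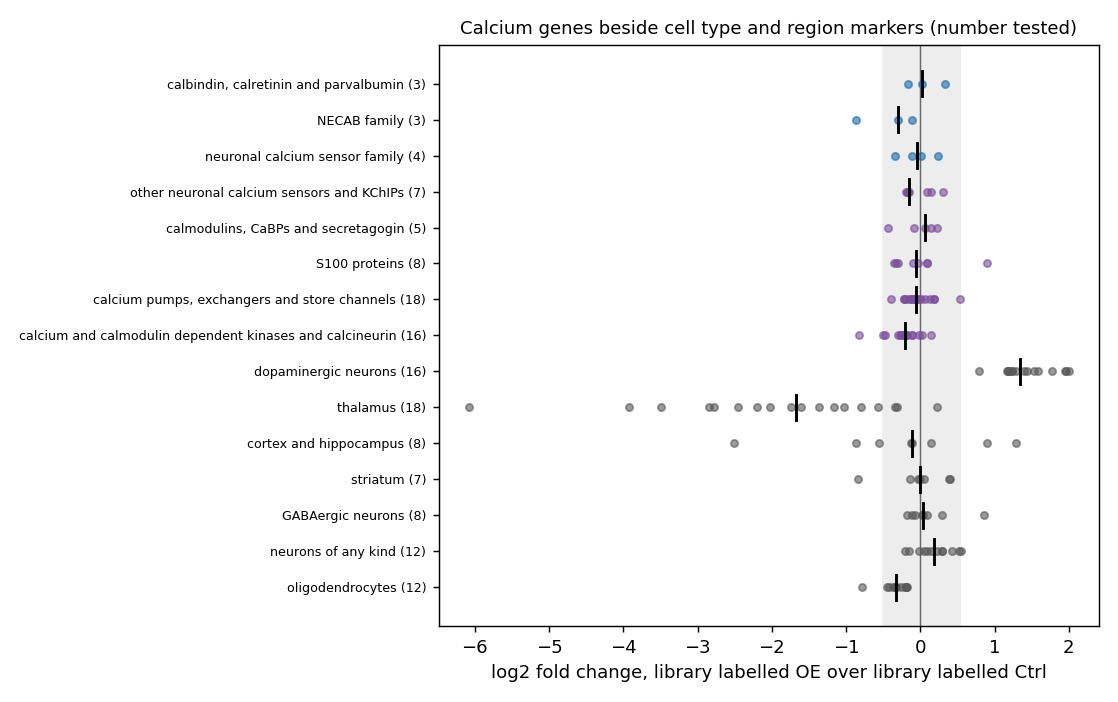
Log2 fold change (OE-labelled over Ctrl-labelled library) of each tested gene of the calcium-binding families (blue), the other calcium lists (purple) and the marker lists (grey), with a black line at each median and a grey band for the 5th to 95th percentile of tested genes. Medians of the calcium families and lists lie between -0.30 and 0.057, and those of DA and thalamus markers at 1.35 and -1.67.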

How the data were processed

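RNA from ventral midbrain was extracted, sequenced (TruSeq Stranded mRNA kit, paired reads) and quantified by a sequencing company for the authors. The authors deposited expected counts, estimated reads per gene from RSEM, without scaling. The build in the submitters' processing notes is mm10, and the aligner, RSEM version and annotation are not given in the sources used here. Of the values, 95.4% are whole to within 0.001. Libraries were matched to groups by the number in column and title. Counts were scaled by TMM (edgeR 4.0.16, R 4.3.3). Log2 fold changes used a pseudocount of 0.5 for 15246 genes whose mean reached 10 counts. Counts were rounded for 95% Clopper-Pearson, Poisson and odds-ratio intervals (scipy 1.17.1), which cover counting error only. TPM used GENCODE M21 lengths, found for 13874 of the tested genes. Sequences, coordinates and shared 50-base stretches come from the same annotation, taking each gene's longest coding sequence, and 4 rows with repeated names had no TPM. Any EF-hand match is a match of letters.

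The 10 genes and all lists were chosen with earlier results of these data known. From the list of calmodulins and CaBPs, 1 gene was left out after the values were seen, for a reason unrelated to its value, and is not reported here. The counts and medians of that list and of the 5 lists together are without it. By rule, the text names the 10 genes, Nr2f2, Th, Slc6a3, Tcf7l2, and the highest and lowest gene of each calcium list whose mean reached 100 counts. Outside this rule, Guca1b and Pcp4 are named for the medians given without them, and Gm49397 for its shared stretches. The fold changes and intervals were tested before use on simulated Poisson counts, which hold counting error only. Variation between mice or between pieces of tissue was not simulated. Alternatives were scaling by total counts, upper quartile or DESeq2 size factors (1.42.0), a pseudocount of 5, other count minimums and thresholds, and the longest coding transcript as length.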

Additional observations from a re-analysis of the deposited data

How the results depend on the processing

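No paired analysis was possible because there is 1 library for each genotype, and leaving out a library was not possible either. Scaling by total counts, the upper quartile or DESeq2 size factors and a pseudocount of 5 left each of the 10 fold changes within its counting interval. They could hardly do otherwise. The median of all tested genes shifted by -0.015 with total counts, 0.014 with the upper quartile and -0.00096 with DESeq2 size factors. The narrowest half-width of a member was 0.053, and with at least 508 counts per member a pseudocount of 5 changes little. The count minimums do not enter a fold change, and all 10 genes lie above them, so these settings could not move the values. Necab2 ranged from -0.88 to -0.85, Hpca from -0.36 to -0.33, Pvalb from 0.32 to 0.35 and Hpcal1 from 0.22 to 0.25, and the counts of members past log2 0.2 stayed at 2 higher and 3 lower.

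Past log2 0.5, 0 of the 10 members were higher and 1 lower, beside 852 higher and 767 lower of the 15246 tested genes. Without a count minimum, 4513 genes lay above and 4497 below by more than log2 0.2, out of a larger number of genes. With a minimum mean of 100 counts these were 1522 and 1377, out of fewer genes, and no share is given for either minimum. With an interval that excludes 0 they were 1509 and 1396 of the 15246, or 9.9% and 9.16%. This rule by construction limits how many can pass. The median of the other neuronal calcium sensors and KChIPs became -0.031 with at least 100 counts, where fewer genes were tested, and the same without Guca1b, an alternative chosen after seeing the data.

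With the longest coding transcript as length, levels in the Ctrl-labelled library were 508.8 TPM for Calb2, 246 for Pvalb, 215 for Hpca, 214 for Ncs1, 197 for Ncald, 123 for Hpcal1, 81.8 for Necab2, 68.5 for Necab1, 59.7 for Calb1 and 50.5 for Necab3. Calb2 stayed first, but the order of those after it depends on the length chosen.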
